A study of Mus musculus with 9 samples.

Results

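The cathepsins described here are 10 lysosomal and endosomal protease genes, Ctsa, Ctsb, Ctsc, Ctsd, Ctse, Ctsh, Ctsk, Ctsl, Ctss and Ctsz, chosen by name from the 18194 genes measured. They were read through 22 of the 34958 probe sets that carry a single gene symbol. All 10 had at least 1 probe set, and the probe set with the highest mean over the arrays stands for the gene unless another is named. The study sorted thymic cells of C57BL/6 mice, aged 8 to 20 weeks, by ZsGreen (ZsG), a green fluorescent protein placed at the start codon of Tslp in a bacterial artificial chromosome. The groups were ZsG plus, ZsG minus mTEC and ZsG minus cTEC, with 3 arrays each and 9 in all. mTEC stands for medullary and cTEC for cortical thymic epithelium. The reporter is a transgene carried on that chromosome, so its signal stands in for Tslp, which encodes thymic stromal lymphopoietin, without measuring it. The gates of the sort, the compartment from which ZsG plus cells came and the number of animals behind each array were not stated in the sources used here. The cell type field reads keratinocytes on all 9 samples, which differs from the titles, and the groups follow the titles.

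Cathepsins are made as inactive precursors, sorted to endosomes and lysosomes, and activated there by acid and by cleavage. In antigen-presenting cells they digest proteins into peptides for MHC class II molecules and trim the invariant chain (Cd74), the chaperone that blocks the peptide groove until late endosomes are reached. In mouse thymus, cathepsin L is known as the invariant chain protease of cortical epithelium and is needed for selection of most CD4+ T cells, while cathepsin S has that task in dendritic cells and other bone marrow-derived presenting cells. The family spans several catalytic classes. Ctsb, Ctsc, Ctsh, Ctsk, Ctsl, Ctss and Ctsz encode cysteine proteases, Ctsd and Ctse encode aspartic proteases, and Ctsa encodes a serine carboxypeptidase.

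The promoters of 3 genes are shown as examples. They are the gene with the largest difference from ZsG minus cTEC (Ctsl), the gene with the smallest such difference (Ctss) and an aspartic protease gene (Ctsd). A link between these sequences and the differences between groups was not tested. The sequences are from RefSeq on GRCm38.p6 and run from 250 bases before to 50 bases after the annotated start. Capitals mark CACGTG, the core of the element bound by the lysosomal regulator TFEB, or the core of the interferon-stimulated response element, searched as GAAA and GAAA with any 2 bases between them.
Ctsl chr13:64370471-64370770, minus strand: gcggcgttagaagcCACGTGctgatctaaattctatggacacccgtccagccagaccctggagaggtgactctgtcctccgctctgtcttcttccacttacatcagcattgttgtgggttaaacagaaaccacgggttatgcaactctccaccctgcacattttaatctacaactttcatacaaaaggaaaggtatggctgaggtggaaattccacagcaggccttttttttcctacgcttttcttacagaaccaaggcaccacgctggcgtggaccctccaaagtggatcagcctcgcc
Ctss chr3:95526536-95526835, plus strand: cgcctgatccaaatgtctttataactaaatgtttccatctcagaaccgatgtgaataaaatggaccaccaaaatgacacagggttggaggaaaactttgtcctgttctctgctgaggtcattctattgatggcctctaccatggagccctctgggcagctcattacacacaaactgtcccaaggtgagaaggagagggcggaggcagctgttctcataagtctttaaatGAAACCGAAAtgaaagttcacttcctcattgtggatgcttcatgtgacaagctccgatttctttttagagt
Ctsd chr7:142387778-142388077, minus strand: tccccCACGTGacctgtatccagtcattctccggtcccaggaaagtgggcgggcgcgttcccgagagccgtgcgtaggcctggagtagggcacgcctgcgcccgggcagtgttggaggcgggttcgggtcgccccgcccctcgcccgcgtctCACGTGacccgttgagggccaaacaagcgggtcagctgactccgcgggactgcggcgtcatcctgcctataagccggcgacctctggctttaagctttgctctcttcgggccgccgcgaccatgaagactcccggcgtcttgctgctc
Promoters were found for 7 of the 10 genes, as 8 sequences. CACGTG, which reads the same on both strands, was found in 3 of the 7 genes (Ctsa, Ctsd and Ctsl), against 7.2% of the 32851 promoters of this length. The interferon element core, searched on both strands, did not overlap the first motif and was found in 1 of the 7 (Ctss), against 3.4% of promoters. These matches describe letters in a window and are not tested sites.

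The arrays could be checked against the markers of their labels. Of 13 cTEC markers, 4 fell and 0 rose in ZsG plus relative to ZsG minus cTEC, and 2 fell and 0 rose in ZsG minus mTEC relative to ZsG minus cTEC, at an adjusted p under 0.05 in limma. Of 11 measured mTEC markers, 3 were higher in both comparisons, Aire among them. Of all genes, 1.74% and 0.627% passed in these comparisons, in either direction. Without overlap with ZsG minus cTEC, 9 of the 13 cTEC markers were lower in ZsG plus and 1 (Krt8) was higher. Of all genes, 13.4% were lower and 9.9% higher in that way. In ZsG minus mTEC 9 were lower and 2 higher (Krt8 and Foxn1), against 11.8% and 16.6% of all genes. Markers of other cells were present too. The summed intensity of 14 thymocyte markers was 8835 to 15190 for ZsG plus, 8067 to 13670 for ZsG minus mTEC, and 53540 to 69530 for ZsG minus cTEC. That of 18 dendritic cell and macrophage markers was 40810 to 131800 for ZsG plus, 46680 to 63960 for ZsG minus mTEC, and 22490 to 66220 for ZsG minus cTEC. Much of it was Lyz2, at 19060 to 66340, 31840 to 39770 and 6909 to 30490. In ZsG plus over ZsG minus mTEC, 5 of the 18 were higher and 1 lower without overlap (5.77% and 12.3% of all genes). Flt3 alone passed in a comparison, lower in ZsG minus mTEC than in ZsG minus cTEC (adjusted p = 0.0485 by limma). The summed intensity of 10 fibroblast markers was 5908 to 29070, 7025 to 10430 and 40090 to 62300 in the same order of groups. The sum of 4 erythroid markers was 902.1 to 2325 for ZsG plus, 3730 to 6264 for ZsG minus mTEC, and 252.1 to 692.5 for ZsG minus cTEC, which sets ZsG minus mTEC apart. The globin gene among them, Hba-a1, did not follow the sum. Its geometric mean was 258.9 for ZsG plus, 83.7 for ZsG minus mTEC and 20.5 for ZsG minus cTEC. Sums of 5 B cell markers were 3426 to 11930, 4281 to 5510 and 1358 to 3239, and those of 6 endothelial markers 1038 to 2330, 1451 to 1882 and 2604 to 2986. The ZsG plus arrays correlated less with each other (Pearson's r across genes 0.614 to 0.687) than the arrays of ZsG minus mTEC (0.837 to 0.849) and ZsG minus cTEC (0.852 to 0.886). Their ratio of 3' to 5' Gapdh signal was 6.71 to 10.6, against 4.55 to 5.97 on the other 6 arrays. The same ratio for actin overlapped, at 0.796 to 1.21 for ZsG plus and 0.874 to 1.14 on the other 6 arrays.

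No cathepsin passed the threshold in any comparison. By the probe set used, some genes had groups that did not overlap. Ctsl was lower outside cTEC, and Ctsa was lower in ZsG minus mTEC. Ctsd, Ctse (by the brighter of its probe sets only) and Ctsz (by 1 of 3 probe sets) were higher in ZsG plus. The threshold was a limma p-value, adjusted by the Benjamini-Hochberg method over all 18194 genes, under 0.05. It was passed by 0 of 10 cathepsins in ZsG plus over ZsG minus mTEC, where 0.22% of all genes passed, and by 0 of 10 in ZsG plus over ZsG minus cTEC, where 1.74% passed. It was passed by 0 of 10 in ZsG minus mTEC over ZsG minus cTEC, where 0.627% passed. At an unadjusted p under 0.05 the counts were 2 of 10, 3 of 10 and 3 of 10 cathepsins, against 13.4%, 18.7% and 12.3% of all genes. The 3 comparisons share arrays and are not independent of each other. Differences below are log2 differences of intensity with their standard errors (3 arrays per group) unless another scale is named.

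**Figure D1:**
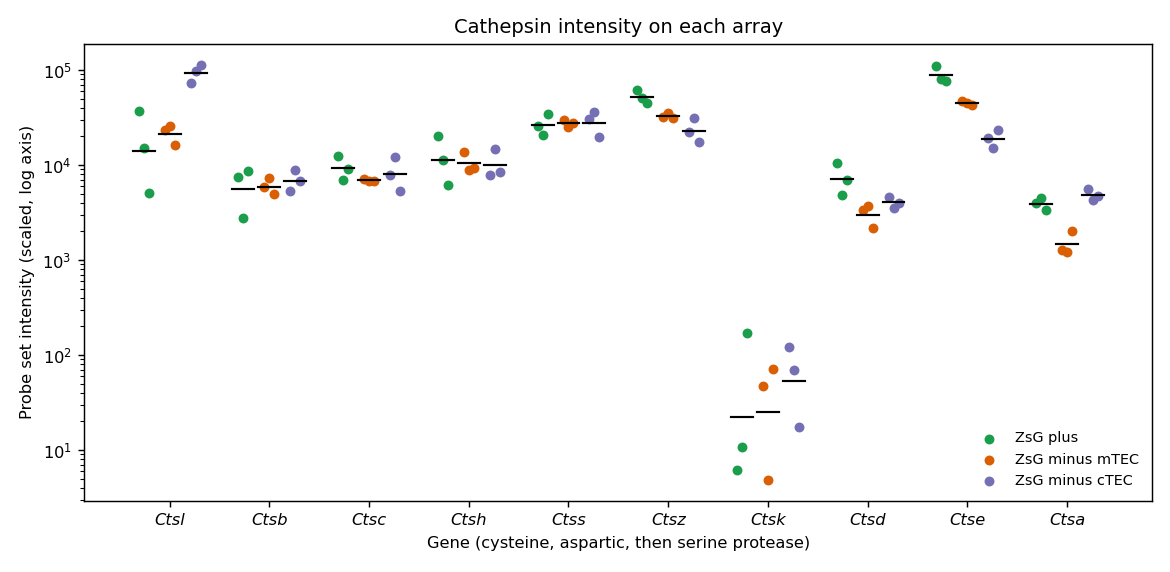
Intensity of the probe set used for each cathepsin gene on each of the 9 arrays (log axis), with 1 point per array and a black bar at the geometric mean of each group of 3. Ctsl is highest in ZsG minus cTEC, Ctse and Ctsz are highest in ZsG plus, Ctsa is lowest in ZsG minus mTEC, and all 9 Ctsk points lie at or below 171.2; points of different genes are not comparable in height, since probes differ.

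Among the cysteine proteases, Ctsl showed the widest difference. Its intensity was 37160, 15310 and 5029 for ZsG plus, 23530, 25560 and 16230 for ZsG minus mTEC, and 73280, 98350 and 113800 for ZsG minus cTEC. Every ZsG plus and ZsG minus mTEC array lay below every ZsG minus cTEC array, while ZsG plus and ZsG minus mTEC overlapped. The difference for ZsG plus over ZsG minus cTEC was -2.72 ± 0.74, a ratio of 0.152 (adjusted p = 0.105 by limma). The comparison of ZsG minus mTEC with ZsG minus cTEC gave -2.13 ± 0.74, a ratio of 0.228 (adjusted p = 0.265 by limma). Set against ZsG minus mTEC, ZsG plus differed by -0.59 ± 0.74, with a 95% interval of -2.26 to 1.08. The ZsG plus arrays spread 7.39-fold for Ctsl, an SD of 1.45 on the log2 scale, against SDs of 0.35 for ZsG minus mTEC and 0.32 for ZsG minus cTEC. Thymocyte and fibroblast markers were also high on the ZsG minus cTEC arrays (summed intensities above), and their part in the Ctsl difference was not tested. In these sorted pools, fewer cells that make a transcript and less transcript per cell cannot be told apart.

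The second probe set of Ctsl gave the same order against cTEC. It read 911.5, 2133 and 1704 for ZsG plus, 479, 1062 and 741.5 for ZsG minus mTEC, and 7106, 4855 and 7392 for ZsG minus cTEC, again without overlap with cTEC. Its difference was -2.09 ± 0.61 for ZsG plus over ZsG minus cTEC and -3.13 ± 0.61 for ZsG minus mTEC over ZsG minus cTEC, and these errors come from a fit of all probe sets. ZsG plus differed from ZsG minus mTEC by 1.05 ± 0.61, the opposite sign to the brighter probe set. With the mean of both probe sets as the gene, Ctsl passed the threshold in both comparisons with cTEC, at -2.41 ± 0.51 in ZsG plus (adjusted p = 0.0431 by limma) and -2.63 ± 0.51 in ZsG minus mTEC (adjusted p = 0.0472 by limma). Without ZsG plus replicate 1 the ZsG plus difference was -3.42 ± 0.64 (adjusted p = 0.0346 by limma). Over the 20 alternatives its adjusted p ran from 0.0234 to 0.264 in the first comparison and from 0.029 to 0.549 in the second.

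Ctss, the cysteine protease of bone marrow-derived presenting cells, showed no such difference. It read 25700, 20690 and 34400 for ZsG plus, 29530, 25360 and 27470 for ZsG minus mTEC, and 30670, 36380 and 19720 for ZsG minus cTEC, so all groups overlapped. The difference was -0.06 ± 0.52 for ZsG plus over ZsG minus mTEC, with a 95% interval of -1.23 to 1.12. With ZsG minus cTEC as the base, ZsG plus stood at -0.09 ± 0.52, with an interval of -1.26 to 1.08. The comparison of ZsG minus mTEC with ZsG minus cTEC gave -0.03 ± 0.52, with an interval of -1.20 to 1.14. For Ctsl the intervals over ZsG minus cTEC were -4.39 to -1.05 in ZsG plus and -3.80 to -0.46 in ZsG minus mTEC, which overlap those of Ctss at their upper ends. With each array centred on the median of its genes the ZsG plus differences of Ctss changed sign, to 0.57 over ZsG minus mTEC and 0.36 over ZsG minus cTEC, and did not pass. Ctss ordered the arrays as the summed dendritic cell and macrophage markers did in ZsG plus and ZsG minus cTEC, but not in ZsG minus mTEC. Of the 9 cathepsins without Ctsk, 2, 2 and 3 kept that order in ZsG plus, ZsG minus mTEC and ZsG minus cTEC. With 3 arrays few orders are possible, so some genes match by chance, and the share over all genes was not counted. The part of such cells in the Ctss signal was not tested.

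The change of Ctsl relative to Ctss was measured within each array, where the scaling of the array cancels. The value log2 Ctsl minus log2 Ctss was 0.53, -0.43 and -2.77 for ZsG plus, -0.33, 0.01 and -0.76 for ZsG minus mTEC, and 1.26, 1.44 and 2.53 for ZsG minus cTEC. All 6 arrays outside cTEC lay below all 3 cTEC arrays. The group means differed by -2.63 ± 1.06 for ZsG plus over ZsG minus cTEC (exact permutation test, two-sided, p = 0.1) and by -2.10 ± 0.46 for ZsG minus mTEC over ZsG minus cTEC (exact permutation test, two-sided, p = 0.1). With 3 arrays against 3 the smallest p is 0.1, so this test cannot pass 0.05. For ZsG plus over ZsG minus mTEC the difference was -0.53 ± 1.01 (exact permutation test, two-sided, p = 0.8), and it was 0.41 without ZsG plus replicate 3.

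**Figure D2:**
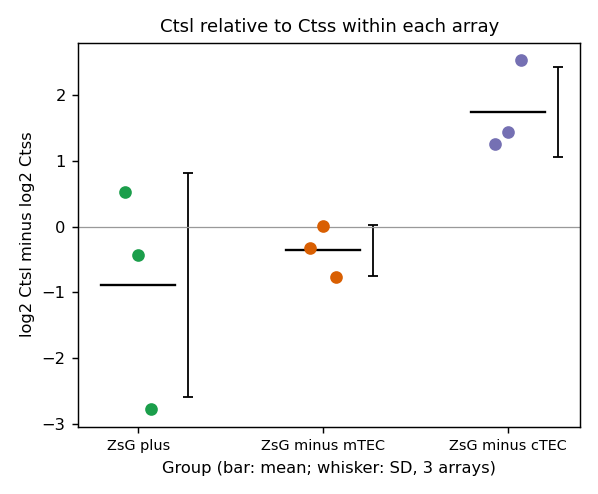
Log2 intensity of Ctsl minus that of Ctss on each array, by group, with the mean (bar) and SD (whisker) over 3 arrays. The ZsG minus cTEC arrays lie at 1.26 or above and the other 6 arrays at 0.53 or below; the height of the values has no meaning as a transcript ratio, since the probes differ.

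Ctsz, which encodes cathepsin Z (also called X), a carboxypeptidase, was ordered ZsG plus, ZsG minus mTEC, ZsG minus cTEC from high to low. It read 61710, 50600 and 44910 for ZsG plus, 31870, 35180 and 31630 for ZsG minus mTEC, and 22130, 31430 and 17460 for ZsG minus cTEC. No 2 groups overlapped, but the nearest arrays of ZsG minus mTEC and ZsG minus cTEC were 31630 and 31430. The difference was 1.18 ± 0.50 for ZsG plus over ZsG minus cTEC, a ratio of 2.26 (adjusted p = 0.253 by limma), and 0.66 ± 0.50 for ZsG plus over ZsG minus mTEC (adjusted p = 0.584 by limma). Set against ZsG minus cTEC, ZsG minus mTEC differed by 0.52 ± 0.50 (adjusted p = 0.805 by limma). The other probe sets of Ctsz differed by 0.04 ± 0.55 and 0.09 ± 0.56 for ZsG plus over ZsG minus cTEC, so the order rests on 1 of 3 probe sets.

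The remaining bright cysteine proteases overlapped between all groups. Ctsb, an endopeptidase that also removes dipeptides, had geometric means of 5658 for ZsG plus, 5926 for ZsG minus mTEC, and 6863 for ZsG minus cTEC. Ctsc, the dipeptidyl peptidase that activates granzymes and other serine proteases, had 9226, 6927 and 7976 in the same order of groups, and Ctsh, an aminopeptidase, had 11246, 10459 and 9907. The 9 differences of these genes ran from -0.28 to 0.41 (limma adjusted p from 0.761 to 0.991). With the mean of its 5 probe sets Ctsb differed by -1.44 ± 0.52 for ZsG plus over ZsG minus mTEC (adjusted p = 0.255 by limma) and by -1.77 ± 0.52 for ZsG plus over ZsG minus cTEC (adjusted p = 0.0978 by limma). ZsG plus arrays were the most uneven for Ctsb and Ctsh, with a highest over lowest ratio of 3.06 and 3.34, against 1.48 and 1.56 in ZsG minus mTEC and 1.64 and 1.87 in ZsG minus cTEC. The SD of Ctsc on the log2 scale was 0.05 for ZsG minus mTEC and 0.58 for ZsG minus cTEC.

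The 5 probe sets of Ctsb had 1 sign but different sizes in the ZsG plus comparisons, from -4.46 to -0.01 over ZsG minus mTEC and from -3.79 to -0.28 over ZsG minus cTEC. The probe set with the widest difference, singled out after its values were seen, read 104, 12.61 and 41.03 for ZsG plus, 1162, 739.2 and 661.9 for ZsG minus mTEC, and 332.4, 846.3 and 501.8 for ZsG minus cTEC. It lay lower on every ZsG plus array than on every other array, and its ZsG plus values did not exceed the bacterial controls there, so the size is not settled. Its difference was -4.46 ± 0.82 for ZsG plus over ZsG minus mTEC (limma adjusted p = 0.0721 over all probe sets) and -3.79 ± 0.82 for ZsG plus over ZsG minus cTEC (adjusted p = 0.0577 by limma). The brightest probe set differed by -0.07 ± 0.63 and -0.28 ± 0.63 in those comparisons. Which transcripts each probe set reads was not tested.

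**Figure D3:**
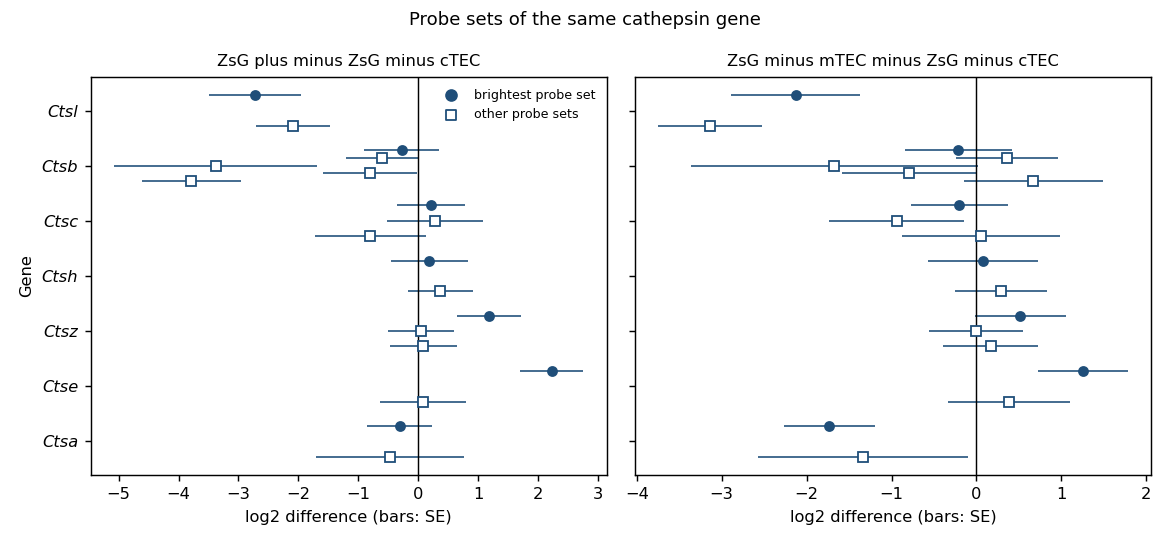
Log2 difference with its standard error for each probe set of the 7 cathepsin genes that have more than 1, for ZsG plus minus ZsG minus cTEC (left) and ZsG minus mTEC minus ZsG minus cTEC (right). Filled circles are the probe sets used. Both Ctsl probe sets lie below 0 in both panels, while for Ctse and Ctsz the other probe sets lie nearer to 0 than the one used.

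Ctsk, the collagen-degrading protease of osteoclasts, was at background. It read 6.15, 10.9 and 171 for ZsG plus, 46.7, 4.84 and 71.4 for ZsG minus mTEC, and 123, 69.3 and 17.4 for ZsG minus cTEC. All 9 values lay within or below the bacterial control range of the same array, whose highest values were 117 to 341. Its differences of -0.17 to -1.23, with standard errors of 1.45, therefore carry no order. Ctsk and Ctss are neighbouring genes on mouse chromosome 3, and Ctss was above that control range on all 9 arrays.

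Of the aspartic proteases, Ctse was higher in ZsG plus than in both other groups. It encodes cathepsin E, an endosomal protease of the stomach, the skin and immune cells. Its intensity was 111700, 80600 and 77510 for ZsG plus, 46830, 45440 and 43380 for ZsG minus mTEC, and 19160, 15140 and 23650 for ZsG minus cTEC. The groups did not overlap and stepped down in that order. The difference was 2.22 ± 0.50 for ZsG plus over ZsG minus cTEC, a ratio of 4.67, just short of the threshold (limma adjusted p = 0.0629, unadjusted p = 0.00144). ZsG minus mTEC differed from ZsG minus cTEC by 1.25 ± 0.50, a ratio of 2.38 (adjusted p = 0.340 by limma). With ZsG minus mTEC as the base, ZsG plus stood at 0.97 ± 0.50, a ratio of 1.96 (adjusted p = 0.432 by limma).

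The step of Ctse for ZsG plus over ZsG minus cTEC passed the threshold under 6 of 20 alternatives, and its adjusted p ran from 0.00124 to 0.247. It passed without genes in the dimmest 40% (adjusted p = 0.0225 by limma), with either centring of the arrays (limma adjusted p = 0.0407 and 0.0423) and with an offset of 100 (adjusted p = 0.0136 by limma). It also passed with a variance prior that follows intensity (adjusted p = 0.00124 by limma) and without ZsG plus replicate 3 (adjusted p = 0.0494 by limma). The other Ctse probe set read 190.3, 285.4 and 170.4 for ZsG plus, 167.7, 512.5 and 202.3 for ZsG minus mTEC, and 189.9, 104.4 and 396.6 for ZsG minus cTEC. It overlapped in all comparisons and differed by 0.08 ± 0.72 for ZsG plus over ZsG minus cTEC. With the mean of both probe sets the gene differed by 1.15.

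Ctsd, the general aspartic protease of lysosomes, was higher on the ZsG plus arrays as well. It read 10480, 4862 and 6965 for ZsG plus, 3385, 3674 and 2154 for ZsG minus mTEC, and 4593, 3575 and 4012 for ZsG minus cTEC. Every ZsG plus array lay above every other array, the nearest values being 4862 and 4593, and the reporter-negative groups overlapped. The difference was 1.24 ± 0.54 for ZsG plus over ZsG minus mTEC, a ratio of 2.37 (adjusted p = 0.362 by limma), and 0.81 ± 0.54 for ZsG plus over ZsG minus cTEC (adjusted p = 0.456 by limma). Ctsd has a single probe set, so no second reading exists here.

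Ctsa, the serine carboxypeptidase that also protects lysosomal beta-galactosidase and neuraminidase, was low in ZsG minus mTEC. It read 4020, 4459 and 3348 for ZsG plus, 1266, 1215 and 2046 for ZsG minus mTEC, and 5630, 4285 and 4767 for ZsG minus cTEC. Every ZsG minus mTEC array lay below every other array, while ZsG plus and ZsG minus cTEC overlapped. The sum of erythroid markers was highest in this group, the opposite direction to Ctsa, and Hba-a1 did not follow that sum. The part of erythroid cells in the Ctsa difference was not tested. The difference was 1.42 ± 0.51 for ZsG plus over ZsG minus mTEC (adjusted p = 0.290 by limma) and -1.73 ± 0.51 for ZsG minus mTEC over ZsG minus cTEC, a ratio of 0.301 (adjusted p = 0.178 by limma). With array weights the comparison with cTEC passed the threshold (adjusted p = 0.0288 by limma), and over all 20 alternatives its adjusted p ran from 0.0288 to 0.44. The second Ctsa probe set, at 32.13 to 656.5 over the 9 arrays, gave the same signs, at 0.86 ± 1.24 and -1.33 ± 1.24.

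**Figure D4:**
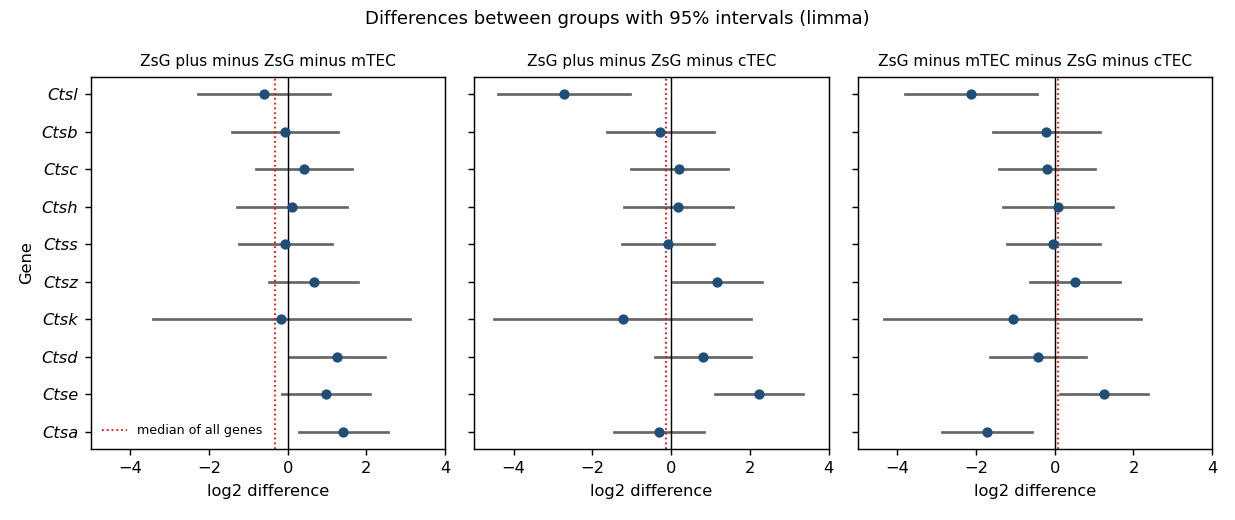
Log2 difference (points) with 95% intervals (bars) for the 10 cathepsin genes in the 3 comparisons, from limma; the dotted red line is the median difference of all genes. Intervals clear of 0 belong to Ctsa and Ctsd in the left panel, to Ctsl, Ctse and Ctsz in the middle panel, and to Ctsl, Ctse and Ctsa in the right panel; these intervals are not adjusted for the number of genes.

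As a group, the 10 cathepsins had a median difference of 0.26 for ZsG plus over ZsG minus mTEC, against -0.33 over all genes. For ZsG plus over ZsG minus cTEC the medians were 0.05 and -0.14, and for ZsG minus mTEC over ZsG minus cTEC they were -0.21 and 0.09. Groups that did not overlap were seen for 4 of 10 cathepsins in each comparison, against 18.1%, 23.3% and 28.5% of all genes. In ZsG plus over ZsG minus mTEC these were Ctsa, Ctsd, Ctse and Ctsz, all 4 higher in ZsG plus, where 5.77% of all genes were higher and 12.3% lower without overlap. In ZsG plus over ZsG minus cTEC 3 were higher (Ctsd, Ctse and Ctsz), where 9.9% of all genes were, and 1 was lower (Ctsl), where 13.4% were. In ZsG minus mTEC over ZsG minus cTEC 2 were higher (Ctse and Ctsz), where 16.6% were, and 2 were lower (Ctsa and Ctsl), where 11.8% were. The cathepsins thus had no common direction in the comparisons with cTEC. The median intensity of an array was 230 to 316 for ZsG plus and 366 to 424 on the other 6 arrays. All cathepsins but Ctsk were bright, at the 84.67th to 99.53rd percentile of mean log2 intensity. All genes include many dimmer ones, and the part of this in the contrast with all genes was not tested.

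The genes with patterns most like Ctsl over the 9 arrays were Trbv1 (Pearson's r = 0.978), Pik3ip1 (0.975) and Rtf1 (0.97). For Ctss they were Nostrin (0.93), Dnajc16 (0.924) and Zc3h8 (0.89). Both searches covered genes with a single symbol at or above the median of mean log2 intensity, leaving out Rik, Gm and other clone names. These r values rank genes over arrays that fall into groups, and are descriptions.

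Other cathepsins gave no calls. Of the 12 listed, 0 passed the threshold in any of the 3 comparisons. An unadjusted p under 0.05 in limma was seen for 2, 1 and 2 of them, against 13.4%, 18.7% and 12.3% of all genes. Ctso, a cysteine protease of wide expression, read 349.4, 2384 and 439.4 for ZsG plus, 3664, 3875 and 3767 for ZsG minus mTEC, and 3322, 1651 and 1522 for ZsG minus cTEC. It lay lower on every ZsG plus array than on the ZsG minus mTEC arrays, by -2.40 ± 0.78 (adjusted p = 0.245 by limma). Ctsf, another cysteine protease known to cut the invariant chain in macrophages, differed by -1.38 in that comparison and overlapped.

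Inhibitors of cathepsins included genes that passed. Of 15 measured inhibitors, 0 passed in ZsG plus over ZsG minus mTEC (3 at an unadjusted p under 0.05 in limma), 1 rose in ZsG plus relative to ZsG minus cTEC, and 2 rose in ZsG minus mTEC relative to ZsG minus cTEC. Of all genes, 0.22%, 1.74% and 0.627% passed in these comparisons, and 13.4% had an unadjusted p under 0.05 in the first. The medians of the inhibitors were -0.38, 0.85 and 1.23, against -0.33, -0.14 and 0.09 over all genes. Cst6 encodes cystatin E/M, an epidermal inhibitor known in humans to block cathepsins L and V and legumain. It read 11570, 6540 and 11530 for ZsG plus, 13790, 12310 and 8580 for ZsG minus mTEC, and 1412, 1189 and 1457 for ZsG minus cTEC. It rose by 2.83 ± 0.52 in ZsG plus over ZsG minus cTEC (adjusted p = 0.0396 by limma) and by 3.07 ± 0.52 in ZsG minus mTEC over ZsG minus cTEC (adjusted p = 0.0458 by limma). Cst6 was thus high in the groups in which Ctsl was low.

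Cst10, a cystatin family gene, read 1066, 35.47 and 205.7 for ZsG plus, 512, 690.8 and 675.4 for ZsG minus mTEC, and 3.164, 5.759 and 18.75 for ZsG minus cTEC. It passed in ZsG minus mTEC over ZsG minus cTEC (6.47 ± 1.16, limma adjusted p = 0.0492), but its cTEC values lie within or below the range of the bacterial controls, so the size is not settled. The broad cysteine protease inhibitors Cstb (cystatin B) and Cst3 (cystatin C, secreted) did not pass. Cstb differed by -0.57 ± 0.55 for ZsG plus over ZsG minus mTEC, -0.59 ± 0.55 for ZsG plus over ZsG minus cTEC, and -0.02 ± 0.55 for ZsG minus mTEC over ZsG minus cTEC. Cst3 differed by 0.88 ± 0.61, -0.63 ± 0.61 and -1.51 ± 0.61 in these comparisons.

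Of 12 measured genes of class II antigen processing, Prss16 was the call. It encodes the thymus-specific serine protease of cortical epithelium and is also 1 of the cTEC markers. It read 1543, 2069 and 504.9 for ZsG plus, 2556, 4051 and 2513 for ZsG minus mTEC, and 49670, 41700 and 55910 for ZsG minus cTEC. Prss16 fell by 5.38 ± 0.64 in ZsG plus over ZsG minus cTEC (adjusted p = 0.0117 by limma) and fell by 4.04 ± 0.64 in ZsG minus mTEC over ZsG minus cTEC (adjusted p = 0.0422 by limma). The other 11 genes did not pass in either comparison, where 1.74% and 0.627% of all genes passed. In ZsG plus over ZsG minus mTEC 0 of 12 passed. There 0 had an unadjusted p under 0.05 in limma, against 13.4% of all genes. By that measure 4 of the 12 were higher and 1 lower in ZsG plus over ZsG minus cTEC, against 18.7% of all genes in either direction. In ZsG minus mTEC over ZsG minus cTEC 2 were higher and 1 lower, against 12.3%. Without overlap, 7 were higher and 1 lower in ZsG plus over ZsG minus cTEC (9.9% and 13.4% of all genes). The invariant chain gene Cd74 read 189600, 166700 and 244600 for ZsG plus, 119800, 119400 and 102600 for ZsG minus mTEC, and 76610, 91680 and 96080 for ZsG minus cTEC. These groups did not overlap, with differences of 0.80 ± 0.49 for ZsG plus over ZsG minus mTEC (adjusted p = 0.506 by limma) and 1.17 ± 0.49 for ZsG plus over ZsG minus cTEC (adjusted p = 0.239 by limma). H2-Aa, a class II chain, differed by 0.31 ± 0.48 and 0.79 ± 0.48.

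Other lysosomal genes mostly did not pass. Of 24 measured lysosomal genes, Hexa, which encodes a subunit of beta-hexosaminidase, fell by 2.62 ± 0.54 in ZsG plus over ZsG minus cTEC (adjusted p = 0.0496 by limma). It read 1259, 712.2 and 1198 for ZsG plus, 1377, 2277 and 2289 for ZsG minus mTEC, and 4703, 7213 and 7290 for ZsG minus cTEC. Of all genes, 1.74% passed in ZsG plus over ZsG minus cTEC. In the other comparisons 0 of 24 passed, with 5 and 2 at an unadjusted p under 0.05 in limma, against 13.4% and 12.3% of all genes. The median difference of the list was -0.38 for ZsG plus over ZsG minus mTEC, -0.64 for ZsG plus over ZsG minus cTEC, and -0.17 for ZsG minus mTEC over ZsG minus cTEC. Npc2, a cholesterol carrier of lysosomes, differed by 0.02 ± 0.51 and 0.66 ± 0.51 in the ZsG plus comparisons, and the membrane protein gene Lamp1 by -0.71 ± 0.53 and -1.15 ± 0.53. Of 12 genes that sort enzymes to lysosomes, 0 passed in any comparison. An unadjusted p under 0.05 in limma was seen for 2, 3 and 2, against 13.4%, 18.7% and 12.3% of all genes. M6pr, a mannose 6-phosphate receptor, differed by 0.06 ± 0.73 and -0.13 ± 0.73 in the ZsG plus comparisons, and the sorting receptor gene Sorl1 by -0.03 ± 0.60 and -0.17 ± 0.60.

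**Figure D5:**
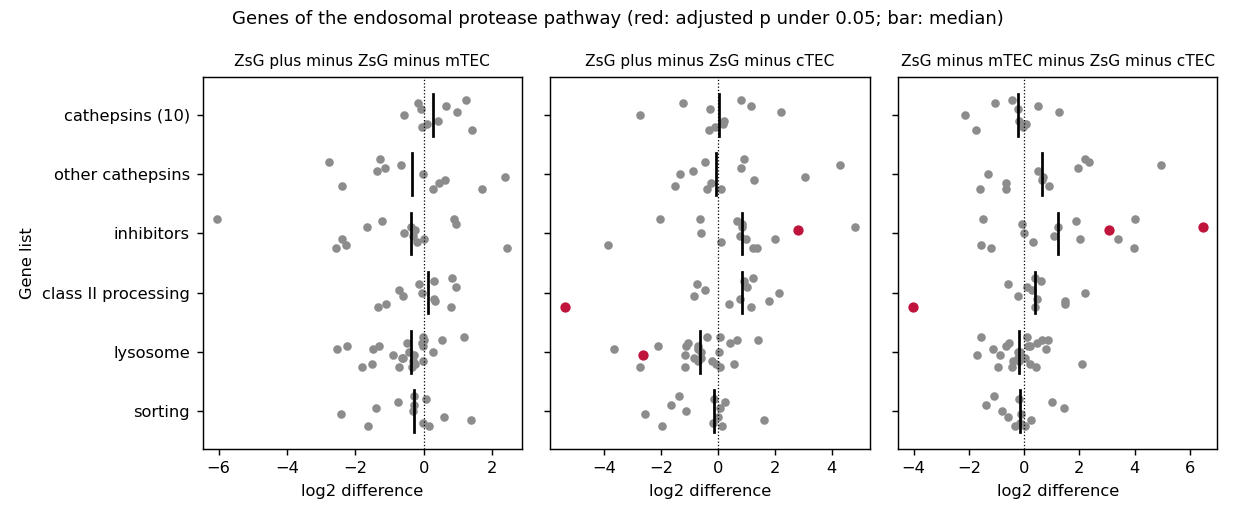
Log2 differences of the 10 cathepsins and of the lists of other cathepsins, cathepsin inhibitors, class II processing, lysosomal and sorting genes in the 3 comparisons; each point is a gene, black bars are medians, and red points have a limma adjusted p under 0.05. Red points are Cst6, Prss16 and Hexa in the middle panel and Cst6, Cst10 and Prss16 in the right panel, and none in the left panel.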

How the data were processed

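The authors deposited 1 table of probe set intensities on a linear scale, with 45101 probe sets and 9 arrays. The software behind them is not given in the sources used here. RNA (5 ng) was amplified with a Pico kit, per the labels' protocols. The deposited intensities average 1250 on every array once 2% is trimmed from either end, which shows a shared scaling target. Scaling of this kind leaves the median of an array free (230 to 316 for ZsG plus and 366 to 424 on the other 6 arrays). No detection calls were used here. Bacterial control probe sets (Phe and Dap) give the background range. Precision is set by the 3 arrays per group.

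The log2 of each deposited intensity was used, without an offset. Of the probe sets, 34958 had 1 symbol, 932 several and 9211 none, and the brightest probe set by mean log2 intensity stood for each of 18194 genes. Comparisons used limma 3.58.1 under R 4.3.3 (lmFit and eBayes, 1 coefficient per group over all 9 arrays, 6 residual and 3.28 prior degrees of freedom), with two-sided p-values adjusted by the Benjamini-Hochberg method. The steps were tested on simulated data. No pair of arrays was identical. Whether replicates are separate animals is not stated, so p-values measure the spread among these samples and it may be technical.

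The members, lists and tests were chosen with earlier results of these data known. Of 181 listed genes, 164 were measured. Named are all 10 cathepsins, and, per list, at most 4 genes past the threshold per direction plus at most 2 bright genes not past it, and the 3 genes most like Ctsl and Ctss by Pearson's r. From the marker lists counts and sums are given, with Aire, Prss16, Krt8, Foxn1, Lyz2, Flt3 and Hba-a1 named. Samples sharing a number did not deviate together (r from -0.015 to 0.0132), so no pairing was used. Alternatives changed the probe set rule, filter, normalization, offset, arrays, weights, variance prior and replicate block, or left out 1 array. Figures were drawn with matplotlib 3.10.9.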

Additional observations from a re-analysis of the deposited data

How the results depend on the processing

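Of 597 member values under alternatives (20 per member and comparison, 19 for Ctsk, which a filter removed), 536 kept their sign and side of the threshold, 16 newly passed it and 45 changed sign, each for a difference that did not pass. The signs of Ctsl, Ctse and Ctsz against cTEC, and of Ctsd in every comparison, held under all of them. Some alternatives could not change a sign, since they leave the difference as it is and alter only its error or adjusted p. These are the test of all probe sets, the filter, the 6 arrays alone, the variance prior and the replicate block. Leaving out an array of the group not compared is another. Apart from the mean of probe sets, the alternatives used the brightest probe set again, so they do not test the other probe sets alone. One of those for Ctsz differed by -0.004 ± 0.55 for ZsG minus mTEC over ZsG minus cTEC. Where values moved, the cause was not tested. In ZsG plus over ZsG minus cTEC, 1 cathepsin passed with the mean of probe sets (Ctsl), 1 with the filter on the dimmest genes (Ctse), 1 with each centring (Ctse), 2 with the offset of 100 (Ctse and Ctsl) and 3 with the variance prior that follows intensity (Ctse, Ctsl and Ctsz). Leaving out 1 array gave 0 to 1, with Ctsl passing without ZsG plus replicate 1 and Ctse without ZsG plus replicate 3. For ZsG minus mTEC over ZsG minus cTEC, 1 passed with the mean of probe sets (Ctsl), 1 with the 6 arrays alone (Ctsl), 2 with array weights (Ctsa and Ctsl), 1 with the variance prior (Ctse) and 0 without any 1 array. No alternative gave a call for ZsG plus over ZsG minus mTEC (0 passed). In the main test 1.74% of all genes passed for ZsG plus over ZsG minus cTEC, and 0.627% for ZsG minus mTEC over ZsG minus cTEC. Apart from the centrings and the arrays left out, each alternative with a cathepsin call also passed more of all genes than the main test (counts below). For ZsG plus over ZsG minus cTEC the count of all genes is not given for the centrings, and only as a range for the arrays left out.

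The count of all genes passing moved widely. The count was 40 for ZsG plus over ZsG minus mTEC, and 82 with all probe sets, 15 with quantile normalization, 3 with each centring, 115 with the offset, 0 with 6 arrays (1785 at an unadjusted p under 0.05 in limma), 0 with array weights (1705), 14 with the variance prior and 0 to 230 without 1 array. It was 317 for ZsG plus over ZsG minus cTEC, and 536 with all probe sets, 496 with their mean, 504 with the filter, 816 with the offset, 0 with 6 arrays (2704), 37 with array weights, 593 with the variance prior and 0 to 735 without 1 array. For ZsG minus mTEC over ZsG minus cTEC it was 114, and 43 with all probe sets, 216 with their mean, 176 with the filter, 178 with quantile normalization, 71 and 48 with centring on all probe sets and on the genes tested, 402 with the offset, 548 with 6 arrays, 1220 with array weights, 265 with the variance prior and 0 to 304 without 1 array. With a replicate block the counts were 0, 16 and 0 in these comparisons (2320, 3278 and 2172 at an unadjusted p), and 0 cathepsins passed in each. Samples share only a number, so this is not a paired design.

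These log2 differences changed sign. With centring on all probe sets and on the genes tested, ZsG plus over ZsG minus cTEC was 0.227 and 0.139 for Ctsa, 0.261 and 0.173 for Ctsb, and 0.451 and 0.363 for Ctss. With the same centrings, ZsG plus over ZsG minus mTEC was 0.467 and 0.559 for Ctsb, 0.477 and 0.569 for Ctss, and 0.369 and 0.461 for Ctsk. With centring on the genes tested Ctsl was 0.036 in ZsG plus over ZsG minus mTEC, and Ctsh was -0.096 in ZsG minus mTEC over ZsG minus cTEC. With quantile normalization Ctsc (-0.005) and Ctsh (-0.034) changed in ZsG plus over ZsG minus cTEC, and Ctsh (-0.062) and Ctsk (0.08) in ZsG plus over ZsG minus mTEC. With the mean of probe sets Ctsc was -0.105 in ZsG plus over ZsG minus cTEC, Ctsl was 0.227 in ZsG plus over ZsG minus mTEC, and the Ctsl to Ctss difference there was 0.284. With the offset Ctsk was 0.092 there. Without 1 array, ZsG plus over ZsG minus mTEC ran from -0.366 to 0.44 for Ctsb, -0.325 to 0.546 for Ctsh, -1.628 to 0.772 for Ctsk, -1.284 to 0.158 for Ctsl, -0.249 to 0.118 for Ctss and -1.246 to 0.407 for the Ctsl to Ctss difference. ZsG plus over ZsG minus cTEC ran from -0.578 to 0.228 for Ctsb, -0.075 to 0.51 for Ctsc, -0.247 to 0.624 for Ctsh and -0.342 to 0.099 for Ctss. ZsG minus mTEC over ZsG minus cTEC ran from -0.488 to 0.096 for Ctsc, -0.125 to 0.359 for Ctsh, -1.868 to 0.127 for Ctsk and -0.286 to 0.156 for Ctss. Signal over background limits Ctsk, which lay within or below the control range on all 9 arrays.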

Other observations

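Rodents carry a set of cathepsin genes made mainly in placenta, and 1 of those listed, Ctsq, was above the bacterial controls on all 3 ZsG minus mTEC arrays. It was chosen after its values were seen. Ctsq read 486.9, 101 and 1339 for ZsG plus, 1177, 309 and 740.2 for ZsG minus mTEC, and 39.7, 20.26 and 10.85 for ZsG minus cTEC. The cTEC arrays lay below all others, within what the bacterial control probe sets read there. ZsG plus replicate 2 also lay within the control range of its array. The sizes of the differences from cTEC are therefore not settled, and neither passed (adjusted p = 0.0677 for ZsG plus and 0.0683 for ZsG minus mTEC by limma). The other placental genes listed, Cts3, Cts6, Cts7, Cts8, Ctsj, Ctsm and Ctsr, overlapped in both comparisons with cTEC, and had geometric means of 12.3 to 157 for ZsG plus, 25.6 to 158 for ZsG minus mTEC, and 16.5 to 103 for ZsG minus cTEC.

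Stfa3, a stefin that inhibits cysteine cathepsins, also chosen after its values were seen, read 46.52, 12.15 and 272.2 for ZsG plus, 3408, 5219 and 2493 for ZsG minus mTEC, and 50.46, 332 and 635 for ZsG minus cTEC. The ZsG minus mTEC arrays lay above all others. All 3 ZsG plus values and 1 ZsG minus cTEC value lay within the range of the controls on their arrays, so the sizes are not settled. The adjusted p by limma was 0.0943 for ZsG plus over ZsG minus mTEC and 0.197 for ZsG minus mTEC over ZsG minus cTEC. Stefin genes are near-identical copies, so the probe signal cannot be assigned to Stfa3 alone.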
